A study of Mus musculus with 4 samples.

Results

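NK cells were followed in mouse pituitary glands: they were the barcodes of a droplet single-cell RNA-seq matrix that carried NK transcripts and none of 4 genes of the T cell receptor complex. A barcode was taken when it held at least 500 UMIs (unique molecular identifiers, each standing for a captured transcript) with mitochondrial genes at most 25% of them. It needed at least 1 UMI of Nkg7 and at least 1 UMI of Ncr1, Klrb1c, Gzma or Xcl1. Cd3e, Cd3d, Cd3g, Trac, C1qa, C1qb and Cd79a had to be at 0, and Gh had to be under 25% of UMIs. In all, 99 of 40044 kept barcodes (40406 in the matrix) met the rule. These 13 genes chose the cells, so their values in the cells are descriptions.

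The study fed male mice a normal diet (ND) or a high-fat diet (HFD) for 12 weeks from an age of 4 weeks and made 2 libraries per diet with the 10x Genomics 3′ chemistry, each from 3 pooled pituitaries. No strain is given in the labels. The labels also list the gonadotroph line Lbt2 as cell line, whereas the matrix held immune cells and a summed level of 293740 CPM (UMI counts scaled to the same total in every group) for the 7 hormone genes Gh, Prl, Pomc, Cga, Lhb, Fshb and Tshb over all other barcodes. All 4 libraries were deposited in 1 matrix of 346690898 UMIs. Each barcode ends in a suffix from 1 to 4, as many as there were libraries, and no source used here ties a suffix to a library or a diet. The cells of each suffix are therefore unassigned sets of 81621358 to 92665029 UMIs, with no comparison between diets and no p-value, and every interval below covers counting error only. Across suffixes 156 barcode sequences occurred in more than 1 set, and 0 of them among NK cells.

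NK cells are innate lymphocytes that kill virus-infected or transformed cells by releasing perforin and granzymes and that make interferon gamma and chemokines. Germline-encoded receptors steer them: activating receptors pass signals through adaptor proteins such as those encoded by Tyrobp and Fcer1g, and inhibitory receptors of the Ly49 (Klra) and NKG2 (Klrc, Klrd1) families read MHC class I on other cells. Circulating mouse NK cells depend on the T-box factor Eomes and carry Itga2 (CD49b). Related innate lymphocytes that stay in tissues, often called ILC1, carry Itga1 (CD49a) and Cxcr6 and depend on Tbx21.

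NK cells were rare in every set. Suffixes 1, 2, 3 and 4 held 27, 29, 15 and 28 of them. They made up 0.247% of kept barcodes (exact 95% interval 0.201 to 0.301%), and 0.267%, 0.292%, 0.148% and 0.283% in the 4 sets. Set 3 was the lowest, and its interval (0.0829 to 0.244%) overlapped those of the other 3. There were 25.2 NK cells per 100 T cells (20 to 31.5), with 28.1, 32.6, 16.9 and 23.5 by set. T cells were barcodes with at least 2 UMIs over Cd3e, Cd3d, Cd3g and Trac under the same other limits, and 393 met that rule. Beside them stood 199 B cells and 1793 macrophages, or 49.7 NK cells per 100 B cells and 5.52 per 100 macrophages.

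**Figure D1:**
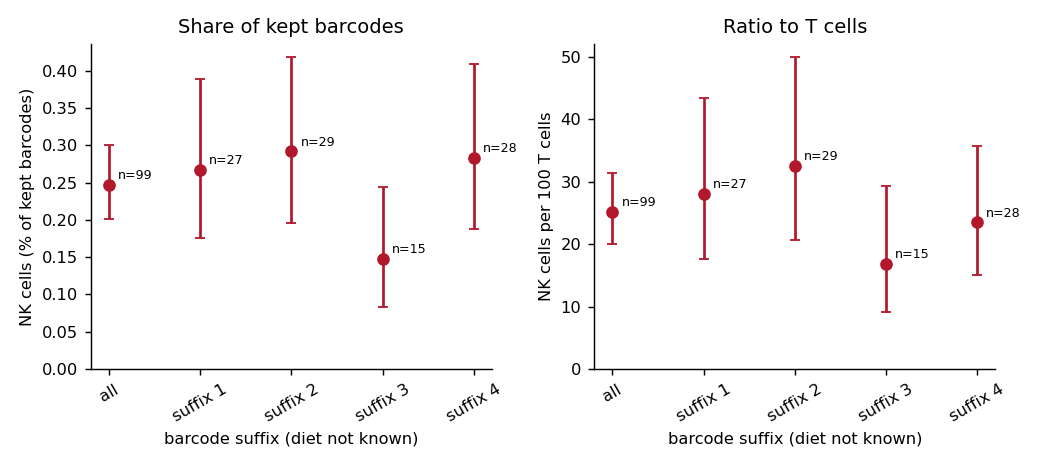
NK cells as a percentage of kept barcodes (left) and per 100 T cells (right), over all barcodes and in each barcode suffix; bars are 95% binomial intervals that cover counting error only, and labels give the number of NK cells. Set 3 has the lowest value in both panels, with an interval that overlaps those of the other sets.

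The rule worked in steps. Nkg7 was found in 525 kept barcodes, 325 of these also had a UMI of the other 4 NK genes, 116 of those had no T cell gene, 107 also lacked C1qa, C1qb and Cd79a, and 99 remained after the Gh limit. Just outside lay 11 barcodes with a single UMI of the T cell genes, 9 with no Nkg7 but at least 2 of the 4 other genes, 9 with a macrophage or B cell UMI, and 8 with Gh at or above the limit. Just inside lay 18 cells with a single Nkg7 UMI. Fcer1g, a gene outside the rule, stood at 1282 CPM in those 18 cells, 1714 CPM in the 81 with more Nkg7, 1469 CPM in the 9 barcodes without Nkg7 and 914 CPM in the 11 with a T cell UMI. Its level in the 35 barcodes that had Nkg7 but none of the other 4 genes was 51.8 CPM. Of the 4 genes, 21 cells had 1, 40 had 2, 30 had 3 and 8 had all 4.

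Xcl1, which encodes the chemokine that draws cross-presenting dendritic cells, was found in 75 of the 99 cells. Klrb1c, which encodes NK1.1, was found in 52, Ncr1 (the NKp46 receptor) in 51 and Gzma (granzyme A) in 45. Xcl1 alone admitted 16 cells, Gzma alone 4, Ncr1 alone 1 and Klrb1c alone 0. T cells, defined above, often held Nkg7 (74.8%) and Xcl1 (42.7%), and less often Gzma (9.67%), Klrb1c (5.09%) or Ncr1 (2.54%). The 16 cells thus entered by 2 genes that are common in T cells. Fcer1g stood at 1490 CPM in them, and whether any were T cells was not tested. Gzma stood at 4469, 4474, 2483 and 2085 CPM in sets 1 to 4, Xcl1 at 853, 2718, 1649 and 1627 CPM and Ncr1 at 152, 309, 246 and 244 CPM. Set 2 was the highest of the 4 for Xcl1 and Ncr1. Nkg7, a granule membrane protein, stood at 1269.6, 1756, 986 and 1393 CPM.

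The label was checked against genes that the rule did not use. Fcer1g was found in 97 of 99 cells, Tyrobp in 92, Il2rb (the interleukin 2 and 15 receptor beta chain) in 89, Klrk1 (NKG2D) in 70 and Klrd1 (CD94) in 68. In T cells Fcer1g was found in 10.9% and Tyrobp in 7.63%, but Il2rb in 50.9%, Klrk1 in 25.4% and Klrd1 in 29.5%. Presence of Il2rb, Klrk1 or Klrd1 alone therefore does not set a cell apart from T cells. Among 199 B cells, which should lack it, Klrd1 was found in 0 (upper limit 1.84%) at a median of 2118 UMIs per cell, against a median of 2433 in NK cells. Ccl5, the sixth marker given for these cells, stood at 7399.9 CPM in NK cells and 5445 CPM in T cells, a ratio of 1.36 (1.300 to 1.42), and the sets of the 2 classes overlapped. The direction of Ccl5 turned with the cells compared: its ratio was 0.966 (0.921 to 1.01) with both classes limited to barcodes with under 5% of hormone transcripts, and its log2 fold was -0.22 against T cells with Nkg7. Several defining genes of other cells were at 0 in the summed NK cells: Cd4, Cd8a, Cd8b1, Cd5, Cd6 and Themis for T cells, Ms4a1 for B cells, Csf1r, Adgre1 and Mrc1 for macrophages, S100a8 and S100a9 for neutrophils, Flt3 for dendritic cells and Cpa3 for mast cells. Of 22 T cell markers 12 were at 0, those of the rule among them, while others such as Trbc1, Trbc2, Lck and Cd28 were present. A count of 0 in 338115 UMIs allows up to 10.9 CPM. Foxp3 was also at 0, but it was so sparse in T cells (log2 fold -1.50) that its absence tells nothing.

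Transcripts of the T cell receptor beta constant genes were present. Trbc1 was found in 58.6% of NK cells and 37.4% of T cells, and in 30.6% and 21.6% after each cell was thinned to 1000 UMIs, which left out 1 NK and 4 T cells. Trbc2 was found in 34.3% of NK cells and 75.6% of T cells. Both were found in 0 of 199 B cells. When Trbc1, Trbc2, Trdc, Cd8a, Cd8b1 and Cd4 also had to be at 0, 27 of the 99 cells were left. Those 27 cells were 0.0674% of kept barcodes. Whether any of the remaining NK cells were T cells without a Cd3 or Trac UMI was not tested. The Trbc1 level of the 99 cells was 335, 451, 341 and 244 CPM in sets 1 to 4.

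**Figure D2:**
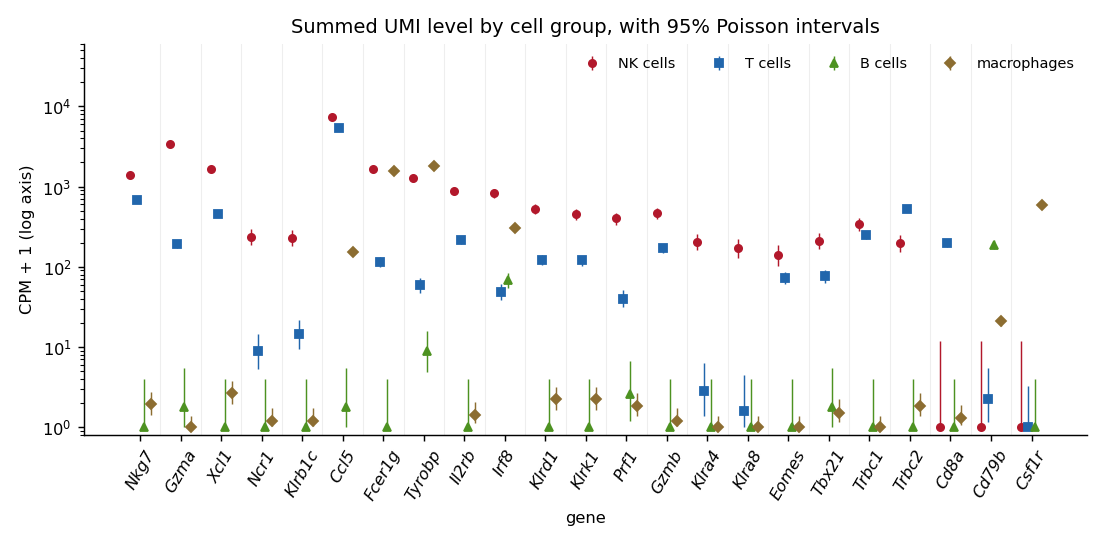
Level of 23 genes (CPM + 1, log axis) summed over NK cells, T cells, B cells and macrophages, with 95% Poisson intervals. NK cells share Fcer1g, Tyrobp and Irf8 with macrophages and Trbc1 with T cells, and have no UMI of Cd8a, Cd79b or Csf1r.

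T cells are the class most like NK cells, and the comparison with them was made over 9815 genes with at least 20 UMIs in both classes together. A gene was called when its log2 fold (on CPM + 1) was at least 1 in either direction and had the same sign in each of the 4 sets. This called 284 genes higher in NK cells (2.89%) and 650 lower (6.62%), 9.52% in all, and the median log2 fold of all tested genes was 0.00. RNA of hormone cells differed between the summed classes: the 7 hormone genes were 4.39% of NK and 10.6% of T cell UMIs. Per cell the medians were closer, 2.67% in NK and 3.02% in T cells, with highest values of 20.6% and 40.3%. With NK and T cells both limited to barcodes with under 5% of hormone transcripts, 205 genes were higher and 306 lower, of which 131 and 149 were also called over all cells. Against only the 294 T cells with Nkg7, which share the cytotoxic granule gene used in the rule, 223 were higher and 278 lower. Higher calls made up 30.4% of all calls over all cells, 40.1% under the hormone limit and 44.5% against T cells with Nkg7. With T cell sums thinned to the depth of the NK sum, 278 were higher and 185 lower, 60.04% higher, and without set 1, 405 were higher and 1002 lower. Each list below is read beside the 2.89% and 6.62% background. List counts under another setting are read beside the shares of all genes there. Those shares, higher and lower, were 2.97% and 4.44% under the hormone limit and 2.82% and 3.51% against T cells with Nkg7. They were 2.99% and 5.53% with doublets removed. Without set 1 they were 4.52% and 11.2%, without set 2 3.94% and 6.35%, and without set 4 4.81% and 10.6%.

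Of the cytotoxic granule genes, 5 of 17 tested members outside the rule were called higher and 1 lower (median log2 fold 0.93). Prf1, the pore-forming perforin, stood at 579, 522, 133 and 263 CPM in sets 1 to 4 and at 39.2 CPM (sets 24.1 to 53.9) in T cells, 10.2-fold (95% interval 7.51 to 13.9) higher. No NK set overlapped the T cell range, and set 3 was the lowest of the NK sets. Gzmb, granzyme B, stood at 467 CPM (95% interval 397 to 546) against 168 CPM, 2.77-fold (95% interval 2.27 to 3.39), and was not called against T cells with Nkg7 (log2 fold 0.77). Serpinb9, an inhibitor of granzyme B that guards the killer cell, stood at 523 CPM against 146 CPM and was also called against T cells with Nkg7. Gzmc, another granzyme, reached 163 CPM from 55 UMIs in 13 cells, and its level was 20.3, 59.3, 37.9 and 448 CPM by set, so set 4 carried most of it. Without set 4 it stood at 38.2 CPM, with a log2 fold of 4.44 over T cells and too few UMIs for a call. T cells had 2 Gzmc UMIs, a ratio of 133 (35.04 to 1124). Gzmk, the granzyme of memory T cells, was the lower member, with 0 UMIs in NK cells and 95 in T cells, at least 6.56-fold lower with 3 counts as the floor. Srgn, the proteoglycan that packs granules, stood at 949 CPM and 651 CPM and was not called.

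In the list of activating receptors and adaptors 10 of 16 tested members were higher and 0 lower (median log2 fold 2.70). The list also held Klrb1b, which encodes an inhibitory receptor and was called higher, so these values are not of activating genes alone. Fcer1g, the signalling chain of Fc and NKp46 receptors, stood at 1534, 2172, 1346 and 1452 CPM in the 4 NK sets and 115 CPM (sets 72.98 to 205) in T cells, 14.3-fold (95% interval 12.1 to 16.97) higher. Tyrobp, which encodes the adaptor DAP12, stood at 1168, 1721, 853 and 1218 CPM against 57.6 CPM (sets 29.4 to 122), 22.1-fold (95% interval 17.6 to 27.9) higher. For both genes the lowest NK set lay far above the highest T cell set. Macrophages carried both adaptors as well, with Fcer1g in 97.1% and Tyrobp in 97.7% of cells, while C1qa and C1qb were at 0 in the NK cells by the rule and Csf1r was at 0 without it. Klrk1 stood at 453 CPM against 119 CPM and Cd244a (2B4) at 142 CPM against 15.3 CPM, 3.81 (3.06 to 4.73) and 9.27 (5.603 to 15.7) times as high. Hcst, the DAP10 adaptor through which NKG2D signals, stood at 331 CPM and 315 CPM, a ratio of 1.05 (0.8496 to 1.29), with a log2 fold of -0.45 under the hormone limit. Cd247 and Zap70, also in this list, stood at 38.4 CPM and 76.9 CPM, and neither was called, although Cd247 was called lower under the hormone limit (log2 fold -1.12).

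In the list of inhibitory receptors 5 of 12 tested members were higher and 0 lower (median log2 fold 1.55). That list also held Klri2, whose product forms an activating receptor with that of Klre1, and Klri2 was called higher. Klrd1, which pairs with NKG2 chains, stood at 325, 676, 398 and 672 CPM by set and 121 CPM (sets 76.8 to 163) in T cells. Its partner Klrc1 (NKG2A) stood at 174 CPM against 25.1 CPM, and Klre1 and Klri2, which form heterodimers of the same family, at 278 CPM and 101 CPM against 45.3 CPM and 2.45 CPM. All NK sets of Klrd1 lay above the T cell sets. Tigit, Lag3 and Klrg1 were sparse, with 5, 3 and 16 UMIs over all 99 cells.

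Many of these receptors lie side by side in the NK gene complex on mouse chromosome 6. Of 41 protein-coding genes from Klrb1a to Klra1, Klrb1c left out because it chose the cells, 18 had enough UMIs, and 12 of these were higher than in T cells and 0 lower (median log2 fold 2.43). The Ly49 genes carried the largest differences: Klra8 had 57 UMIs in 23 NK cells and 1 in T cells, a ratio of 275 (47.4 to 11056), and Klra4 had 69 UMIs in 17 cells and 3 in T cells, a ratio of 111 (36.4 to 552). Klra8 stood at 173, 119, 114 and 234 CPM in sets 1 to 4, so every set carried it. Klra9 stood at 183 CPM against 17.2 CPM, and Klra7 and Klra1 at 38.4 CPM and 20.7 CPM, neither of which was called. Klrb1b and Klrb1f, lectin-like relatives of NK1.1, stood at 222 CPM and 106 CPM against 5.51 CPM and 6.13 CPM. Klra genes are near-identical copies and differ between mouse strains, so the split of UMIs among them is uncertain. Cd69, in the same stretch, stood at 148 CPM against 205 CPM and was not called, but was called lower under the hormone limit (log2 fold -1.01).

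Of 20 tested lineage transcription factors, 4 were higher than in T cells and 0 lower (median log2 fold 0.60, and -0.04 with 3 higher and 1 lower under the hormone limit). Against T cells with Nkg7, 2 of 19 were higher and 0 lower. Irf8, a factor NK cells need for antiviral expansion, stood at 1036, 997, 322 and 721 CPM by set and 47.8 CPM (sets 10.5 to 137) in T cells, 17.1-fold (95% interval 13.3 to 22.3) higher. Set 3 was the lowest and still lay above the T cell sets. Id2, which holds back the E proteins of the T and B lineages, stood at 1115 CPM against 368 CPM, and Bhlhe40 at 769 CPM against 376 CPM. Bhlhe40 lay close to the limit (log2 fold 1.03) and was not called under the hormone limit (0.65), with doublets removed or without set 2, 3 or 4. Of the T-box pair, Tbx21 was found in 42 cells at 210.0 CPM, 2.81-fold (95% interval 2.07 to 3.79) the T cell level (not called against T cells with Nkg7, log2 fold 0.87), and Eomes in 27 cells at 139 CPM against 71.7 CPM, which was called without set 4 (log2 fold 1.12) and not over all sets. Runx3 stood at 334 CPM (95% interval 275 to 402) in NK and 199 CPM in T cells and was not called either.

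T-box and RUNX factors bind short DNA cores, so the 250 bases before the start of the 5 NK genes of the rule are shown with those letters in capitals: the T-box core TCACAC, read as GTGTGA where it lies on the other strand, and the RUNX core TGTGGT, read as ACCACA where it lies on the other strand. No 2 matches overlap here. The windows are RefSeq promoters on GRCm38.p6, written in the direction of the gene.
Nkg7 (chr7:43436888-43437137, plus strand): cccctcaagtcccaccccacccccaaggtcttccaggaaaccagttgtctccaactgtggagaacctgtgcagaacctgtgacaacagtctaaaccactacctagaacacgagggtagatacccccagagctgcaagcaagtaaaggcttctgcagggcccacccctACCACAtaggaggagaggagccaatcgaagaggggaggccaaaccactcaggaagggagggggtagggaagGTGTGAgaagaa
Gzma (chr13:113100982-113101231, minus strand): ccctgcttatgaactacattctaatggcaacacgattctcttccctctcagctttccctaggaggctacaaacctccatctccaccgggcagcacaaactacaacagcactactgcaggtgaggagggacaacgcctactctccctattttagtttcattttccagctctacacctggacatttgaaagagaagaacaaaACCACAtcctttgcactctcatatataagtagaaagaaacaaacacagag
Ncr1 (chr7:4337465-4337714, plus strand, the first of 2 start sites): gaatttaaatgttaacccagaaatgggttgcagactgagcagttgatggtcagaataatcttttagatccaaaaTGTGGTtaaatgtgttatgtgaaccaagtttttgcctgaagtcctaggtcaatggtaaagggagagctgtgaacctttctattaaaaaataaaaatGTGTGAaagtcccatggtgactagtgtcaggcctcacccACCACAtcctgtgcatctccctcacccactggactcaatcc
Klrb1c (chr6:128788642-128788891, minus strand): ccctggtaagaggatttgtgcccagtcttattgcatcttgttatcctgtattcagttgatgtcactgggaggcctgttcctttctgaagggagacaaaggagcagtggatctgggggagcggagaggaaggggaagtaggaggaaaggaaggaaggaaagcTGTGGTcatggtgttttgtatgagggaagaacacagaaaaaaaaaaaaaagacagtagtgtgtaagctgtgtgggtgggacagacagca
Xcl1 (chr1:164935523-164935772, minus strand): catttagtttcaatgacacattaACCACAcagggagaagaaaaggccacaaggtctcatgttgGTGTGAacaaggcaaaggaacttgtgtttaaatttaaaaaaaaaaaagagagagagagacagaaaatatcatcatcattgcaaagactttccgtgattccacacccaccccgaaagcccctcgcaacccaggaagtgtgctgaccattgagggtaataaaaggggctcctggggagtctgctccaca
All 5 windows hold the RUNX core, beginning 83, 50, 89 and 227 bases before the start in Nkg7, Gzma, Klrb1c and Xcl1 and at 176 and 41 bases in Ncr1. The T-box core is in the Nkg7, Ncr1 and Xcl1 windows, at 12, 80 and 187 bases. Over 27025 RefSeq promoters of the same length, 14.2% hold the RUNX core and 12.2% the T-box core. Among 8 other NK genes searched in the same way, the RUNX core is in the windows of Gzmc, Prf1, Gzmb and Cxcr6 and the T-box core in that of Gzmb, while those of Klra8, Klra4, Fcer1g and Irf8 hold neither. These are matches of letters, and no binding was measured.

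Of 9 tested genes of chemokines and cytokines outside the rule, 3 were higher than in T cells and 0 lower. Their median log2 fold was 0.44, and it turned to -0.05 under the hormone limit, with 2 higher, and to -0.22 against T cells with Nkg7, with 3 higher. The chemokine genes Ccl4 and Ccl3 stood at 3382, 3822, 3298 and 2338 CPM and 629.7, 653, 455 and 351 CPM in sets 1 to 4, against 729 CPM (sets 531 to 920.2) and 68.6 CPM (sets 43.9 to 98.4) in T cells, 4.34 (3.99 to 4.71) and 7.63 (5.99 to 9.75) times as high. Neither gene's sets overlapped those of T cells. Tgfb1 stood at 260.3 CPM against 86.4 CPM, with a log2 fold of 0.87 and no call under the hormone limit. Ifng, the interferon made by both classes, was found in 39 NK cells at 207 CPM against 269.6 CPM, a ratio of 0.768 (0.588 to 0.9902), and was not called. Tnf had 6 UMIs and Csf2 3 in all NK cells.

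Receptors for the cytokines that sustain and prime NK cells were in part higher: 4 of 16 tested cytokine receptors were called higher and 0 lower (median log2 fold 0.32, and -0.06 under the hormone limit). Il2rb stood at 741, 1175, 607 and 926 CPM by set against 216 CPM (sets 165 to 277), 4.100-fold (95% interval 3.503 to 4.798) higher, with no overlap of sets. The interleukin 18 receptor chains Il18rap and Il18r1 stood at 172 CPM and 106 CPM against 23.3 CPM and 27.6 CPM, and the interleukin 12 receptor chain Il12rb2 at 65.1 CPM against 18.99 CPM. Il7r, the receptor of interleukin 7, stood at 82.8 CPM against 129.9 CPM and was not called.

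Of 24 trafficking and adhesion genes, 8 were higher and 2 lower than in T cells (median log2 fold 0.46). The balance turned under the hormone limit, with 3 of 24 higher and 5 lower (median -0.11), and it was 5 and 3 with doublets removed and 5 and 2 against T cells with Nkg7. The integrin chains Itgam (CD11b) and Itga2 stood at 76.9 CPM and 53.2 CPM against 1.23 CPM and 5.51 CPM. Itga2 was not called under the hormone limit, where its log2 fold of 3.16 did not have the same sign in every set. Itgb2, the beta chain that pairs with Itgam and Itgal, stood at 335, 356, 133 and 205 CPM by set against 83.3 CPM (sets 54.9 to 98.5). The monocyte chemokine receptor gene Ccr2 stood at 195 CPM against 38.6 CPM. Ccr7, which guides T cells into lymph nodes, was at 0 in NK cells and had 65 UMIs in T cells.

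The T cell marker list was lower: 11 of 17 tested members outside the rule were lower and 0 higher, with a median log2 fold of -1.84 (-1.68 with members at 0 set at the 3-count floor). Both CD8 chains were at 0, and Cd8a, with 317 UMIs in T cells, was at least 21.9-fold lower. Cd6 and Cd5, which dampen T cell receptor signals, and Themis, which T cells need in the thymus, were at least 17.2-fold, 10.8-fold and 8.01-fold lower. The remaining members were shared: Lck, the kinase that starts T cell receptor signalling, stood at 210.0 CPM against 224 CPM, and Cd2 at 115 CPM against 147 CPM. Cd28 stood at 166 CPM against 303 CPM, and was called lower under the hormone limit (log2 fold -1.52). These genes share the T cell lineage with those that chose the T cells, so their direction is not independent of the choice of cells.

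**Figure D3:**
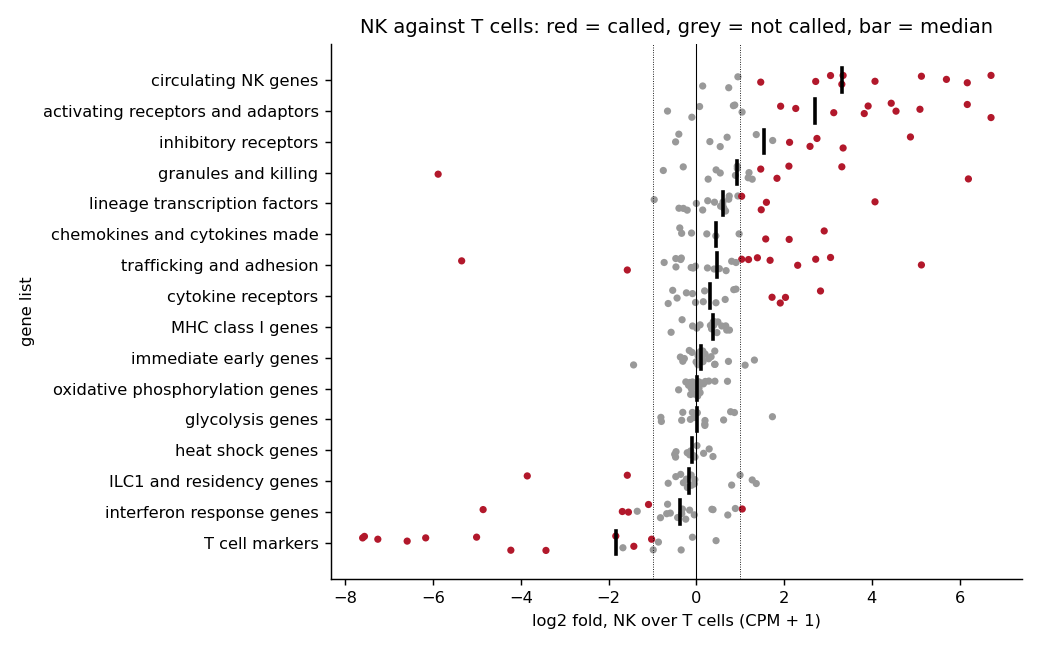
Log2 fold of NK over T cells (CPM + 1) for each tested gene of 16 lists, without the genes of the rule; red points were called, grey points were not, and black bars are list medians. Receptor and circulating NK genes lie to the right, T cell markers to the left, and housekeeping and stress lists around 0.

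Set against all 39945 other kept barcodes, 1524 of 24125 tested genes were higher in NK cells (6.32%) and 4349 lower (18.0%). Lymphoid genes led the higher side by the size of the fold. Prf1 stood at 399 CPM against 0.569 CPM, Il2rb at 884 CPM against 1.73 CPM and Klrk1 at 453 CPM against 0.9795 CPM. Cd7, a receptor of T and NK cells, stood at 503 CPM against 1.85 CPM and was also higher than in T cells (118 CPM).

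NK cells differed among themselves along receptors that mark circulating and tissue-resident cells elsewhere in the body. Klra4, Klra8 or Klra9 was found without Itga1 or Cxcr6 in 31 cells (13, 7, 5 and 6 in sets 1 to 4), and Itga1 or Cxcr6 without those Klra genes in 29 (4, 9, 6 and 10). Both kinds were found in 11 cells and neither in 28. The first 2 groups were close in depth, with medians of 2076 and 2439 UMIs per cell and 108914 and 103783 UMIs in all. These groups were defined by single transcripts in sparse counts, so they are ends of a range and not classes, and a cell with neither cannot be placed.

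Gzma marked the Klra end. It had 710 UMIs (6519 CPM) against 2 (19.3 CPM), 338-fold (93.3 to 2799) higher, and was found in 28 of 31 against 1 of 29 cells. In sets 1 to 4 the Klra cells stood at 6471, 10756, 8333 and 2673 CPM, and the Itga1 or Cxcr6 cells at 0, 72.4, 0 and 0 CPM. Gzma and Xcl1 both admit cells under the rule, so their difference between the ends is a description only. Eomes, outside the rule, had 30 UMIs in 17 Klra cells and 0 in the other end, at least 9.53-fold higher. Itga2, Itgam and Cma1, a mast cell type protease, had 13, 11 and 21 UMIs against 0 each, while the mast cell gene Cpa3 was at 0 in all NK cells. Klf2, which drives exit from tissues into blood, had 77 UMIs (707 CPM) against 7 (67.4 CPM), 10.5-fold (4.85 to 26.9) higher in Klra cells, and Irf8 146 UMIs (1341 CPM) against 31 (299 CPM), 4.49-fold (3.03 to 6.84). Prf1 and Gzmb had 81 and 92 UMIs against 16 and 22. The members of the circulating and residency lists were chosen after their values were seen, so their counts describe these cells and support nothing. Over the circulating NK list without its Klra genes, 12 of 12 genes were higher in the Klra cells, 8 of them in every set and 11 with an interval above 1, and their summed level was 6.22-fold higher (4.92 to 7.96).

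Rgs1, Ltb, Il7r, Xcl1 and Tbx21 were higher at the other end. Rgs1, which blunts chemokine receptor signals and is a mark of tissue lymphocytes, had 124 UMIs in Itga1 or Cxcr6 cells against 20, 6.51-fold (4.04 to 11.02) higher, and was higher in all 4 sets. Ltb (lymphotoxin beta) had 40 against 2, 20.99-fold (5.44 to 179), and Il7r 18 against 0, at least 6.297-fold. Xcl1 had 225 against 54, 4.37-fold (3.24 to 6), and Tbx21 29 against 8, 3.804-fold (1.697 to 9.63). The chemokine genes were divided: Ccl4 and Ccl3 were 1.73-fold (1.45 to 2.07) and 2.099-fold (1.34 to 3.34) higher in Itga1 or Cxcr6 cells, and Ccl5, with 1186 UMIs against 432, was 2.62-fold (2.34 to 2.93) higher in Klra cells. Cd27, Klrc1, Cd160 and Ikzf2 had 24, 25, 17 and 16 UMIs against 6, 6, 2 and 2. Gzmc was at 0 in Klra cells and had 44 UMIs in 7 of the other cells, 40 of them in set 4. Over the residency list without Itga1 and Cxcr6, 13 of 14 genes were higher in these cells and the last, Gpr55, was at 0 in both. Only Il7r, Ltb and Rgs1 were higher in every set, those 3 with Rora and Inpp4b had intervals that exclude 1, and Itgae rested on 1 UMI in each end. The summed level was 3.61-fold higher (2.88 to 4.56). Of 1967 genes with at least 20 UMIs in these cells, 1003 were higher in Klra cells and 964 in the others, so neither end was higher across genes in general.

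Several genes of NK identity did not differ between the ends beyond counting error, and others did. Ncr1 had 19 UMIs (174 CPM) against 23 (222 CPM), a ratio of 0.787 (0.405 to 1.51), and Klrb1c, Id2, Fcer1g, Klrk1 and Ifng likewise had intervals that include 1. Tyrobp was 1.66-fold (1.28 to 2.17) higher in Klra cells and Klrd1 1.72-fold (1.14 to 2.63) higher in the others. Trbc2 had 10 UMIs in Klra cells and 25 in the others, 2.62-fold (1.22 to 6.12) higher there, beside Cd8a, Cd5 and Cd6 at 0 in both. In the 27 cells that also lacked Trbc1, Trbc2 and Trdc the 2 summed ratios were 2.53 for the circulating list and 5.84 for the residency list. Over all NK cells the residency list had 0 of 16 genes higher than in T cells and 2 lower (2 higher and 0 lower without set 1), and the circulating list 10 of 13 higher and 0 lower.

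**Figure D4:**
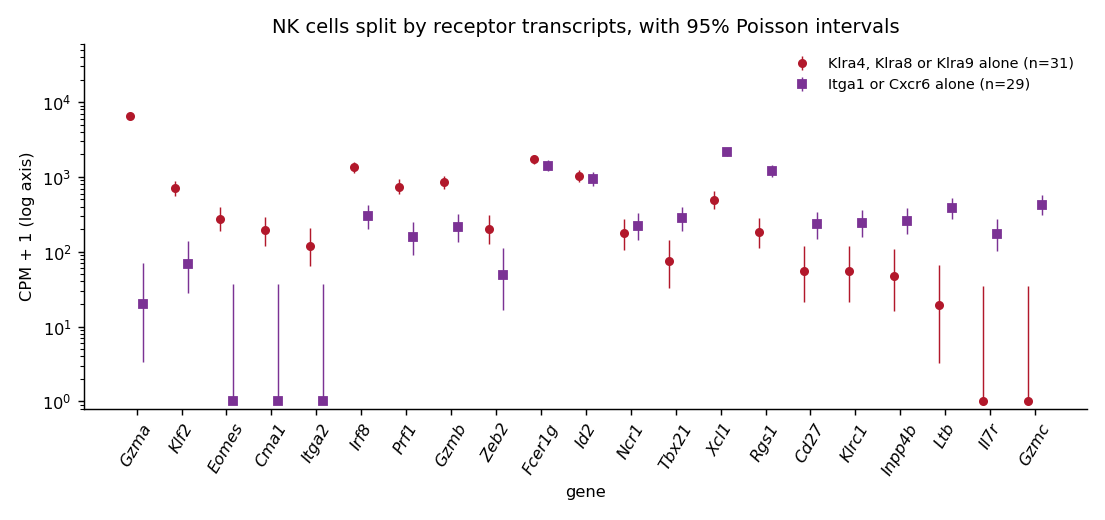
Level of 21 genes (CPM + 1, log axis) in the 31 NK cells with Klra4, Klra8 or Klra9 alone and the 29 with Itga1 or Cxcr6 alone, with 95% Poisson intervals. Gzma, Klf2 and Eomes are higher at the Klra end, Xcl1, Rgs1, Ltb, Il7r and Gzmc at the other, and Fcer1g, Id2 and Ncr1 overlap.

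Few NK cells carried cycle transcripts. All 38 Mki67 UMIs were in 4 cells, 1 in set 2 and 3 in set 4, each with at least 2 of 10 cycle genes. The list had 2 of 13 tested genes higher than in T cells and 0 lower (median log2 fold 1.36). Both, the replication genes Mcm3 and Mcm6, were chosen for naming after their values were seen, and neither was called under the hormone limit or against T cells with Nkg7. Without set 4 the median was 0.41. The list's summed level was 1077, 1222, 948 and 3605 CPM in sets 1 to 4, highest in set 4.

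Interferon response genes leaned lower than in T cells, with 1 of 20 tested genes higher and 4 lower (median log2 fold -0.38), and 0 of 19 higher and 7 lower under the hormone limit. Ifi203 was the higher gene, at 243 CPM against 117 CPM, and was not called under that limit, against T cells with Nkg7 or without set 2 or 3. Isg15 stood at 132, 59.3, 0 and 38.97 CPM by set against 77.2 CPM (sets 32.9 to 111), with overlapping sets. Under the hormone limit it was called lower, at 34.1 CPM against 122 CPM, a ratio of 0.279 (0.124 to 0.552). The list's summed level was 1178, 1021, 1649 and 828 CPM in NK sets 1 to 4. In T cells it was 1688, 1328, 988 and 1888 CPM, so set 3 went the other way. Without set 4 the list's median log2 fold was -0.03, with 2 of 19 genes higher and 4 lower.

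Stress and housekeeping groups showed no call over all cells. None of 24 immediate early genes, 12 heat shock genes, 16 MHC class I genes, 15 glycolysis genes, 24 genes of oxidative phosphorylation and 13 glucocorticoid response genes was called in either direction, and their median log2 folds lay between -0.10 and 0.39. Under the hormone limit, where 4.44% of all tested genes were lower and 2.97% higher, 3 of 12 glucocorticoid response genes were lower: Nr3c1, the receptor itself, Sgk1 and Il7r (log2 folds -1.20, -2.78 and -1.12). Nlrc5, which drives MHC class I genes, and the early gene Egr3 were lower there (-1.26 and -2.35) and the early gene Klf4 higher (1.57). The early gene Jun stood at 1595, 748, 5213 and 1734 CPM by set, and Fos at 2377, 700.2, 3715 and 2562 CPM, so set 3 was high and set 2 low. The MHC class I genes H2-K1 and B2m, whose products NK receptors read on other cells, stood at 2626 CPM and 2094 CPM against 1899 CPM and 1491 CPM. Their log2 folds of 0.47 and 0.49 fell to -0.0009 and -0.05 under the hormone limit. The median of the MHC class I list fell from 0.39 to -0.08 there and to 0.03 against T cells with Nkg7. Of 21 lipid and cholesterol genes 2 were lower and 0 higher, with 0 lower without set 2 and 1 of 18 lower under the hormone limit.

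Receptors for hormones of the gland were near the limit of detection. Prlr, the prolactin receptor, had 8 UMIs in NK cells (23.7 CPM) against 52.7 CPM in T cells. It was called lower over all cells (log2 fold -1.12) and not without set 3, against T cells with Nkg7 (-0.13) or under the hormone limit, where its direction turned (6 against 4 UMIs, log2 fold 1.97). Ghr, the growth hormone receptor, had 0 UMIs. Nr3c1, the glucocorticoid receptor, was found in 32 cells at 112, 142, 246 and 87.7 CPM by set. Tsc22d3, its target gene, stood at 192 CPM against 125 CPM.

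RNA of other cells was measured in the same barcodes. Gh was found in all 99 cells, at a summed 26414 CPM, and the 7 hormone genes were a median of 2.67% of a cell's UMIs (lowest 0.968%, highest 20.6%). They reached 5% or more in 13 cells. Kdr and Plvap, genes of endothelial cells, had 70 and 53 UMIs in 4 and 5 cells, almost all in sets 1 and 3. Their log2 folds over T cells, 2.35 and 1.40, turned to -1.67 and -1.41 under the hormone limit. Of 14 macrophage markers 10 were at 0 in NK cells, and their summed level was 315, 83.1, 853 and 409 CPM in NK sets 1 to 4 against 259.8 CPM in T cells and 61003 CPM in macrophages. Of 10 B cell markers 6 were at 0, with a summed 239.6 CPM against 4839 CPM in B cells, and of 10 markers of other innate lymphocytes (ILC2 and ILC3) 7 were at 0. Of 10 dendritic and mast cell markers 9 were at 0. Scrublet, run in each set, marked 6 of the 99 cells (6.06%) as possible doublets, and 44 of the 393 T cells (11.2%). With hormone transcripts under 5% of UMIs, Fcer1g stood at 1856 CPM and Prf1 at a log2 fold of 2.65 over T cells, both still called. Gzma stood at 3966 CPM there, which is a description only because Gzma admits cells under the rule. The part of this RNA in other differences was not tested.

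**Figure D5:**
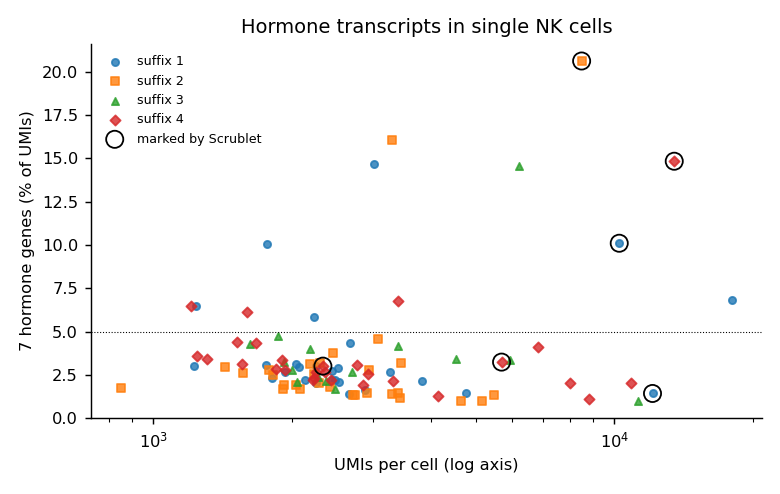
UMIs per cell (log axis) against the share of the 7 hormone genes in each of the 99 NK cells, by barcode suffix; rings mark cells called doublets by Scrublet and the dotted line is 5%. Most cells lie under the line, and 13 lie on or above it.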

How the data were processed

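Pituitary cells of 4 libraries, 2 per diet, were measured with 10x Genomics 3′ single-cell RNA-seq, per the labels' protocols. The authors deposited raw UMI counts as 1 matrix of 55357 genes by 40406 barcodes, made with Cell Ranger 8.0.1 per the file headers, and the submitters' processing notes also name Seurat. The build of its genome is not given in the sources used here, nor whether doublets had been removed.

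Barcodes with under 500 UMIs or over 25% mitochondrial UMIs were left out, and NK cells, T cells, B cells and macrophages were taken by transcript rules. The members and the 27 gene lists were chosen with earlier results of these data known. Counts were summed per class and suffix and scaled to CPM. A gene with at least 20 UMIs over both classes was called at a log2 fold of 1 (pseudocount 1 CPM) with the same sign in each suffix. No test was run, since the classes were chosen by transcripts of the same cells and no suffix is tied to a diet. Intervals are 95% exact Poisson or Clopper-Pearson intervals, with conditional binomial intervals for ratios. Log2 folds, calls and list medians kept a count of 0 and used the pseudocount. A count of 0 was set to 3 counts only for folds given as at least a value and where a median is said to use that floor. Genes were named by rule: the markers and rule genes, up to 5 members of each list with the highest CPM, the 20 highest and 15 lowest folds against T cells with at least 30 UMIs, and the 15 highest against all other barcodes. Other genes named, and the members of lists used for the 2 ends of the NK range, were chosen after their values were seen. Doublets were scored with Scrublet in scanpy 1.11.5 and marked at a score over 0.15, chosen after seeing the data because the automatic threshold marked 0 barcodes in 2 suffixes. This marked 8.21% of kept barcodes, and they stayed in. The software was Python 3.11.15 with pandas 2.3.3, scipy 1.17.1 and numpy 2.4.6.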

Additional observations from a re-analysis of the deposited data

How the results depend on the processing

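No paired analysis was possible because no comparison here comes from a test: the classes were compared within each suffix only through the sign of the fold. The share of NK cells fell from 0.247% to 0.195% when at least 2 of Ncr1, Klrb1c, Gzma and Xcl1 were needed and to 0.0674% when Trbc1, Trbc2, Trdc, Cd8a, Cd8b1 and Cd4 also had to be at 0, and NK cells per 100 T cells from 25.2 to 19.8 and 6.87. Under that last rule, which left 27 cells, 65 genes were higher and 1214 lower than in T cells, higher calls were 5.08% of calls, and the summed ratios between the 2 ends were 2.53 for circulating and 5.84 for residency genes. The 650 lower genes became 306 with hormone transcripts under 5% of UMIs, 354 with a pseudocount of 10 CPM, 185 with T cell sums thinned to the NK depth and 1205 with no minimum count. In 2 settings chosen after seeing the data they became 278 (against T cells with Nkg7 only) and 287 (hormone limit and doublets removed together). The cause of these shifts was not tested. Leaving out each suffix in turn gave shares of 0.232 to 0.281%, 23.03 to 27.6 NK cells per 100 T cells, 328 to 423 higher and 543 to 1002 lower genes, circulating ratios of 5.37 to 8.997 and residency ratios of 2.69 to 4.31. Stricter barcode limits, removal of doublets and library sizes without hormone genes kept these results within their intervals or within 1.5 times their counts. That holds for the totals and not for each gene. With doublets removed 246 genes were higher and 455 lower, of which 192 and 278 were also called over all cells. Genes shared in this way were 282 and 647 under the stricter limits and 239 and 649 without hormone genes in library sizes. Of 2116 levels of 193 named genes over all alternatives 265 moved beyond their counting interval. Of 2189 log2 folds against T cells, from 183 genes, 436 moved, and the sign of a called gene turned in 2, both of Prlr: 1.97 under the hormone limit and 0.51 with doublets also removed. The sign turned under at least 1 alternative in 73 of the 113 genes not called, 31 of them under the hormone limit and 24 against T cells with Nkg7. With 338115 UMIs in 99 cells, a gene under about 3 counts could not be told from 0.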
